A study of Mus musculus with 4 samples.

Results

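The nuclear genes for the subunits of the 5 oxidative phosphorylation complexes were examined in endothelial cells sorted from tumours of mice that had received an antibody against CD93 or a control antibody. Members were chosen by symbol: names starting Nduf followed by a, b, c, s or v and a digit (complex I), Sdha to Sdhd (complex II), names starting Uqcr (complex III), Cox4 to Cox8 (complex IV) and Atp5 (complex V). The pattern matched 101 symbols, of which 13 ending in -ps were left out, so that 88 of 55367 gene names were members: 40 in complex I, 4 in complex II, 8 in complex III, 19 in complex IV and 17 in complex V. The pattern takes 4 symbols that an older annotation, GENCODE vM21, types as processed pseudogenes (Ndufs6b, Cox6c2, Ndufb4c and Ndufa11b), and it misses the subunits Ndufab1 and Cyc1 and the inhibitor Atpif1. KPC cells, a mouse pancreatic cancer line, had been injected under the skin of C57BL/6 mice. Rat IgG (control IgG) or the anti-CD93 antibody was given when tumours could be felt, and CD31+CD45- cells were sorted 48 hours later. The 2 groups therefore shared strain, tumour line, site and time, and differed in the antibody. Each group had 2 libraries, and nothing in the labels says whether they came from separate mice, so a p-value here reflects the spread between libraries that may be technical replicates.

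Oxidative phosphorylation moves electrons from NADH (complex I) and succinate (complex II) through coenzyme Q to complex III, cytochrome c and complex IV, which reduces oxygen. Complexes I, III and IV pump protons across the inner mitochondrial membrane, and complex V, the ATP synthase, lets them return and makes ATP. All complexes but II combine subunits encoded in the nucleus with a few encoded in mitochondrial DNA. Endothelial cells are known for making much of their ATP by glycolysis, and their respiratory chain is known to serve proliferation and redox balance as well as ATP supply.

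The libraries held 9364294 to 17813993 reads assigned to genes. All 7 endothelial markers looked at were present, with a summed level of 6630 to 7951 CPM (reads as a rate of all reads assigned in the library, TMM-scaled, the unit of every level that follows) per library. The 5 tumour epithelial markers summed to 1518 to 2250 CPM, the 5 fibroblast markers to 1275 to 1940 CPM and the 6 leukocyte markers to 15.7 to 30.8 CPM. Control IgG replicate 2 stood apart: it had the fewest reads and the most genes with a read (27718, against 23796 to 25430), and ribosomal RNA of the mitochondrion took 6.20% of its reads against 10.97% to 11.8% in the others. That library was also the highest for the endothelial, tumour epithelial, fibroblast and leukocyte sums, as for the platelet, adipocyte and skeletal muscle ones, and the part of such cells in the members' levels was not tested. Medians of the members, and log2 fold changes of single genes that turn or move by over 1.5 times without it, are therefore given without it too. In sorted bulk samples, fewer cells of a type and less RNA per cell cannot be told apart.

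No subunit gene of any complex passed the test between the groups. Of the 88 members, 81 had enough reads for the test, and the other 7 (Cox6a2, Cox6b2, Cox7b2, Cox8b, Cox8c, Ndufa11b and Ndufb4c) did not pass the count filter. Of the 81, 0 had an adjusted p under 0.05 by the quasi-likelihood test of edgeR with Benjamini-Hochberg adjustment, beside 0% of all 16945 genes tested, and the smallest adjusted p of a member was 0.812. DESeq2 and limma-voom also called 0 members. At an unadjusted p under 0.05 there were 3, all lower with anti-CD93 (Ndufa8, Uqcr10 and Atp5k), beside 2.5% of all genes on the lower side and 1.99% on the higher side. DESeq2 gave 3 members at that level and limma-voom 2.

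Most members nevertheless had a small negative difference. The log2 fold change (anti-CD93 over control IgG) was below 0 in 61 of 81 members and above 0 in 20, beside 50.9% of all genes below 0. Its median was -0.16, beside -0.0092 over all genes. By complex, the median was -0.17 in complex I (27 of 38 lower), -0.13 in complex II (4 of 4), -0.19 in complex III (7 of 8), -0.23 in complex IV (12 of 14) and -0.099 in complex V (11 of 17). Both anti-CD93 libraries lay below both controls in 18 members, beside 19.7% of all genes, and above both in 9, beside 20.1% of all genes. Together, 33.3% of the members had groups that did not overlap, against 39.8% of all genes.

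**Figure D1:**
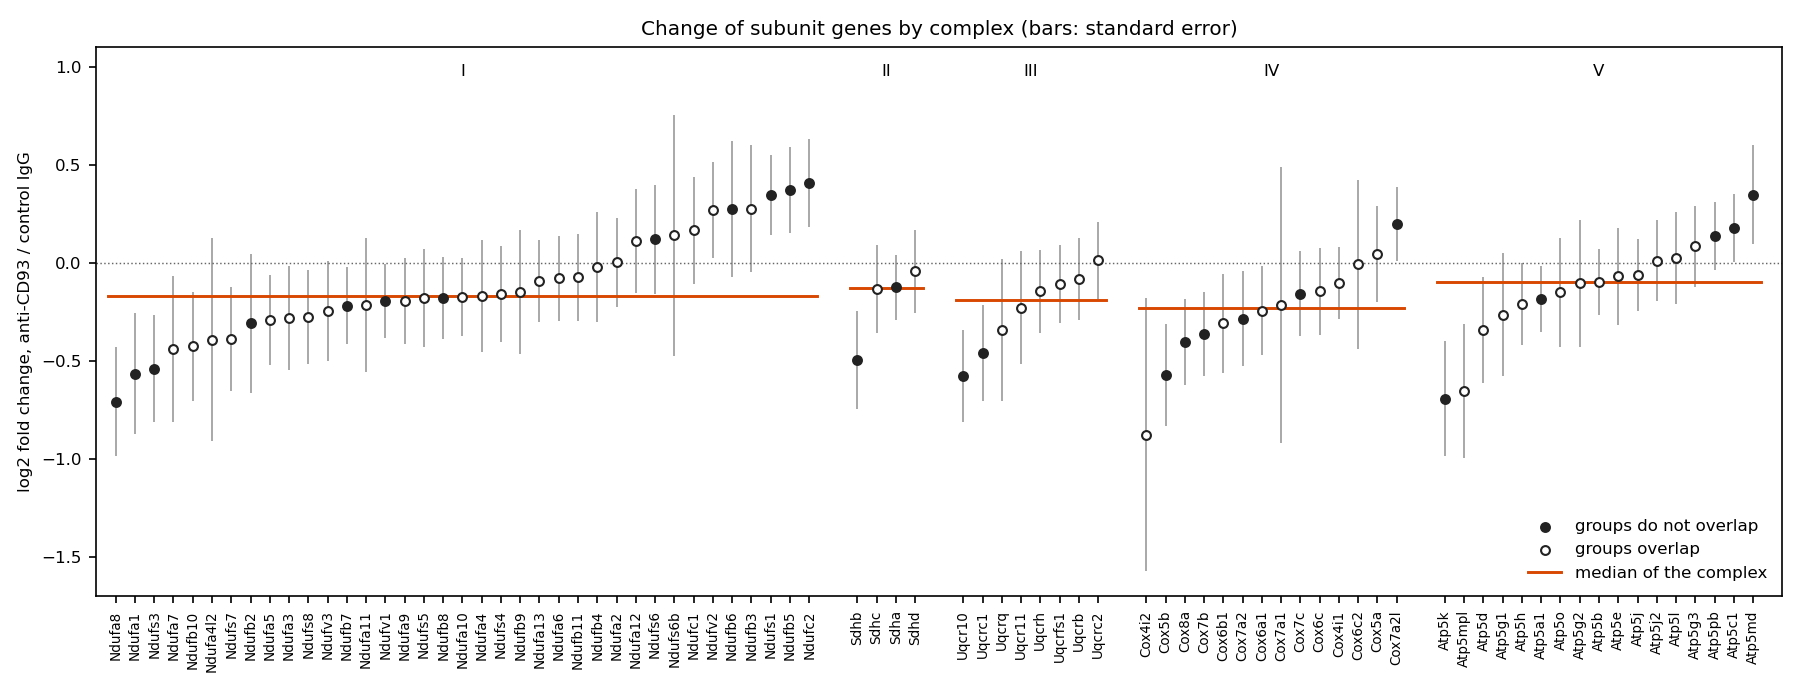
Log2 fold change of tested members (anti-CD93 over control IgG, vertical axis) by complex, with bars for the standard error from edgeR. Filled points mark members whose groups do not overlap, and orange lines mark the median of all tested members of each complex, from -0.23 in complex IV to -0.099 in complex V.

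Those negative differences rested on control IgG replicate 2. It had the highest CPM of the 4 libraries in 57 of 81 members (70.4%), beside 38.7% of all genes tested. Summed over all members, the control libraries reached 2861 (replicate 1) and 3622 CPM (replicate 2), and those given anti-CD93 reached 2940 (replicate 1) and 2821 CPM (replicate 2). The first control thus lay between the anti-CD93 libraries, and the second lay above all. In the same order of libraries, complex I summed to 828.7, 1026, 859.1 and 814.3 CPM and complex III to 269.8, 394.2, 279.6 and 279.1 CPM. Complex IV summed to 475.7, 633.3, 485.2 and 455.7 CPM and complex V to 1078, 1328, 1113 and 1077 CPM. In all 4 of these complexes, the second control lay above the other libraries and the first did not stand above both anti-CD93 libraries. Complex II differed in that both anti-CD93 libraries (203.3 and 194.9 CPM) lay below both controls (208.4 and 240.7 CPM), the first control by a small margin.

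Leaving out that library turned the sign of the members' median, to a value near 0 and with control IgG replicate 1 alone in its group. Without control IgG replicate 2, the members' median was 0.039, with 50 higher and 31 lower (49.4% of all genes were below 0), and 0 members were called, beside 0.0177% of all genes called lower and 0.059% called higher. The medians of complexes I, III, IV and V were then 0.075, 0.062, 0.0064 and 0.067, and that of complex II was -0.052. Without control IgG replicate 1, when replicate 2 alone stood for its group and was assumed to vary like the others, the members' median was -0.28 and 27 members were called, 25 lower (beside 12.8% of all genes) and 2 higher (beside 14.1%). Without anti-CD93 replicate 1 the median was -0.17, with 64 of 81 lower (beside 50.5% of all genes) and 0 called (beside 0%). Without anti-CD93 replicate 2 it was -0.12, with 59 of 81 lower (beside 50.8%) and 0 called (beside 0.0059% of all genes called lower).

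**Figure D2:**
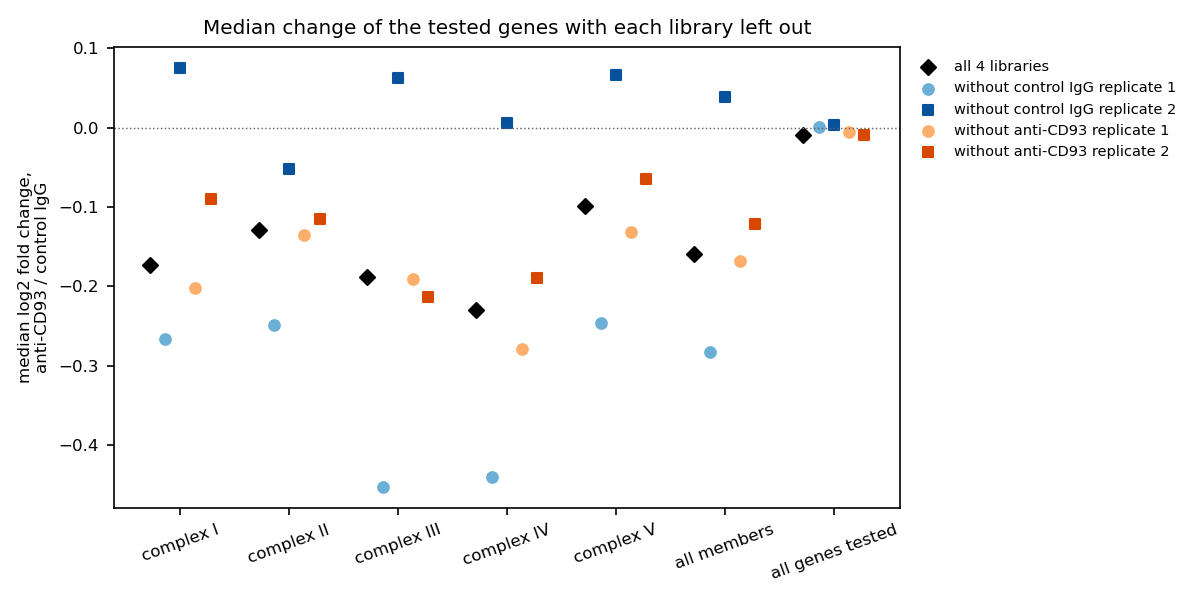
Median log2 fold change (anti-CD93 over control IgG, vertical axis) of the tested members of each complex, of all 81 members and of all 16945 genes tested, with all 4 libraries and with each left out. For all members the values run from -0.28 without control IgG replicate 1 to 0.039 without control IgG replicate 2, while the medians of all genes stay near 0.

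Promoters of nuclear respiratory genes are known for sites of the transcription factors NRF1 and GABPA (also called NRF2), and several also carry sites of YY1. RefSeq windows of GRCm38.p6, from 250 bases before to 50 after a gene's start, matched 68 of the 88 members by symbol. The NRF1 motif, whose matches are in capitals in the stretches that follow, was searched on both strands and was in a window of 17 members (25%), against 5.19% of 27025 genes with a window and 10.7% of the 10978 tested genes with one. By complex the 17 were 7 of 32 in complex I, 2 of 3 in complex II, 1 of 5 in complex III, 1 of 13 in complex IV and 6 of 15 in complex V. The GABPA letters ACTTCCGG were in 5 members (7.35%, against 4.31% of all genes and 8.51% of tested genes), and the YY1 letters AAGATGGC in 10 (14.7%, against 3.19% and 4.92%). The hypoxia response core, ACGTG or GCGTG, was in 45 (66.2%, against 46.7% and 65.8%). GCGTG can share bases with an NRF1 match. These stretches show an NRF1 or GABPA match in members of 4 complexes whose values are described later. Each is 80 bases, written 5′ to 3′ on the gene's strand and ending by the start that RefSeq gives or at the end of a match that crosses or follows it. That start can lie inside the span of the gene in the deposited table, as in Ndufa8, Ndufs3, Atp5k and Atp5c1. Capitals mark the NRF1 or GABPA letters.
Ndufa8, NRF1, chr2:36049339-36049418, minus strand: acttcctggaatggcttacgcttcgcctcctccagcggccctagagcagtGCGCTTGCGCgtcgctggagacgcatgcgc
Sdha, NRF1, chr13:74350294-74350373, minus strand: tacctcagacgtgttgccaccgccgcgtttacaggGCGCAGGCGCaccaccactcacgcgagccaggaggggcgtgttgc
Atp5k, NRF1, chr5:108434405-108434484, minus strand: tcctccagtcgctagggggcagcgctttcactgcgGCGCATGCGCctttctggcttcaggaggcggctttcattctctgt
Atp5c1, NRF1, chr2:10080433-10080512, minus strand: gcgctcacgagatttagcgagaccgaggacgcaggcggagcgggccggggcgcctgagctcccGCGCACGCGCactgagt
Ndufs3, GABPA, chr2:90904714-90904793, minus strand: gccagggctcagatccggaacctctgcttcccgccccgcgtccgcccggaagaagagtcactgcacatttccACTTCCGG
Cox8a, GABPA, chr19:7217615-7217694, minus strand: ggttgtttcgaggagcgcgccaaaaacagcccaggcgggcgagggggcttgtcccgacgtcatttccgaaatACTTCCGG
Members with and without the NRF1 motif had like medians of the log2 fold change, -0.15 over 17 tested members and -0.18 over 48, and 0.073 and 0.0051 without control IgG replicate 2. Ndufa8 and Atp5k, among the lowest members, and Atp5c1, which was higher with anti-CD93 than in either control, all carry them. A match describes the letters, not a bound site.

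Complex I, NADH dehydrogenase, is the largest complex, with a peripheral arm that oxidises NADH and a membrane arm that pumps protons. Its nuclear core subunits are those that carry or surround the electron path, and none of those described here passed the test. Ndufv1, which binds the flavin that takes electrons from NADH, was at 45.8 and 40.7 CPM with control IgG and 37.9 and 37.6 CPM with anti-CD93 (a log2 fold change of -0.20, SE 0.19). Here control IgG replicate 2 was not the highest library, and the value without it was -0.28. With each library's trend with length and GC content removed, the value of Ndufv1 was -0.014. Ndufs1, the largest subunit and a carrier of iron-sulfur clusters, was at 36.2 and 29.7 CPM against 40.3 and 43.6 CPM (0.35, SE 0.20, and 0.21 without that library). Its groups did not overlap, with anti-CD93 higher. It shares 6.16% of its exonic bases with neighbouring or overlapping genes. Ndufv2, an iron-sulfur subunit beside Ndufv1, was at 35.6 and 23.3 CPM against 34.1 and 37.1 CPM. Only control IgG replicate 2 was set apart, on the low side, and the log2 fold change went from 0.27 to -0.0015 without it.

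Among further core subunits, Ndufs3 was at 17.3 and 26.5 CPM against 15.9 and 14.1 CPM (log2 fold change -0.54, SE 0.27, edgeR adjusted p = 0.812). Both anti-CD93 libraries lay below both controls, by a small margin for control IgG replicate 1, and the value was -0.20 without replicate 2. Of its 100-base stretches 19.8% also occur in transcripts of the predicted gene Gm12251, so its reads may not be all its own. Ndufs7, a carrier of the cluster that hands electrons to coenzyme Q, was at 16.9 and 25.6 CPM against 15.3 and 17.1 CPM. Ndufs8, another iron-sulfur subunit, was at 23.7 and 34.4 CPM against 23.8 and 23.9 CPM. In both genes the groups overlapped and 3 libraries lay close together below control IgG replicate 2.

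Accessory subunits of complex I, which stabilise and help assemble it, gave its most extreme values. Ndufa8 (chromosome 2, 36036326 to 36049406), an accessory subunit with disulfide-linked helices on the intermembrane side, was at 37.4 and 65.4 CPM with control IgG and 33.2 and 29.6 CPM with anti-CD93. Its log2 fold change was -0.71 (SE 0.28, unadjusted p = 0.0341, edgeR adjusted p = 0.812), the smallest p of the complex. The first control lay just above the anti-CD93 libraries, and the value was -0.25 without replicate 2 and -1.06 without replicate 1. Ndufa1, a small membrane subunit encoded on the X chromosome, was at 11.9 and 20.2 CPM against 10.3 and 11.3 CPM (-0.57, SE 0.31), and its value was -0.14 without replicate 2. In the other direction, Ndufc2, a membrane-arm subunit (chromosome 7, 97400003 to 97407802), was at 17.4 and 15.2 CPM against 22.9 and 20.3 CPM (0.41, SE 0.23, edgeR adjusted p = 0.812). Both anti-CD93 libraries lay above both controls, and without control IgG replicate 2 the value was 0.32. Ndufb5, another membrane-arm subunit, was at 17.7 and 15.8 CPM against 21.9 and 21.5 CPM (0.37, SE 0.22), and shares 12.3% of its exonic bases with Mrpl47. Ndufb6 was at 4.49 and 4.50 CPM against 5.20 and 5.67 CPM, and shares 39% of its exonic bases with Smim27. Values of genes that share bases with another gene are uncertain, since strand was not used in counting.

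**Figure D3:**
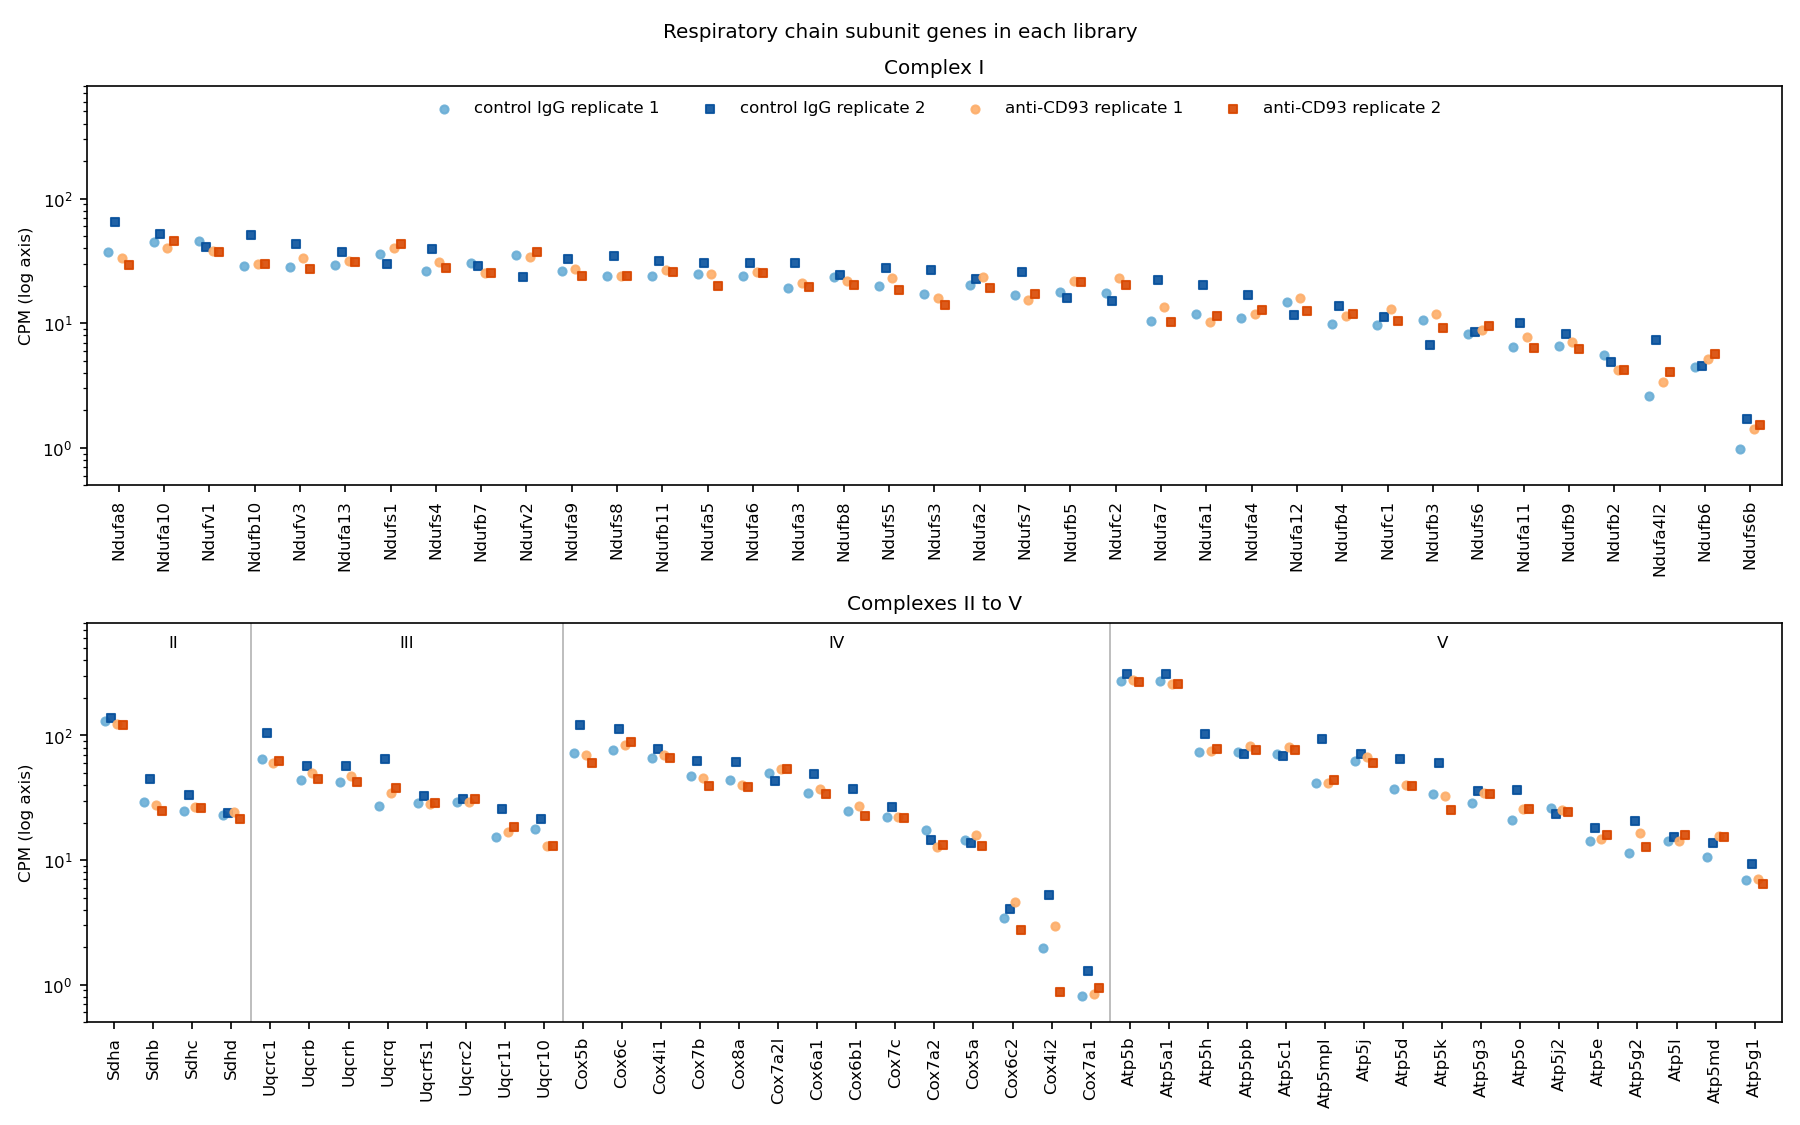
CPM (log axis) of tested members in each of the 4 libraries, with complex I in the upper panel and complexes II to V in the lower panel, ordered within a complex by the control mean. Dark blue squares, control IgG replicate 2, stand above the other 3 libraries in most of the members drawn (57 of all 81 tested), as for Ndufa8 (65.4 CPM against 29.6 to 37.4) and Atp5mpl (93.9 against 41.8 to 44.2).

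Complex II, succinate dehydrogenase, links the TCA cycle to the chain and has no subunit encoded in mitochondrial DNA. Sdha, the flavoprotein that oxidises succinate, was at 131.2 and 138.0 CPM with control IgG and 124.7 and 122.1 CPM with anti-CD93 (a log2 fold change of -0.13, SE 0.17). The groups did not overlap, but the gap between them was about as small as the distance between the controls, and the value was -0.090 without control IgG replicate 2. Sdhb (chromosome 4, 140961203 to 140979193), the iron-sulfur subunit, was at 29.4 and 45.1 CPM against 27.6 and 25.0 CPM (-0.50, SE 0.25, edgeR adjusted p = 0.812). Without control IgG replicate 2 it was -0.16. The membrane anchors overlapped between groups: Sdhc was at 24.8 and 33.5 CPM against 26.8 and 26.3 CPM. Sdhd was at 23.1 and 24.1 CPM against 24.2 and 21.5 CPM.

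Complex III, the cytochrome bc1 complex, passes electrons from coenzyme Q to cytochrome c. Uqcr10 (chromosome 11, 4701973 to 4704342), a small accessory subunit, was at 17.6 and 21.2 CPM with control IgG and 12.9 and 13.1 CPM with anti-CD93. Here both controls stood clear of both anti-CD93 libraries, and the log2 fold change was -0.58 (SE 0.24, unadjusted p = 0.0402, edgeR adjusted p = 0.812). Without control IgG replicate 2 it was -0.44 (edgeR adjusted p = 0.645). Uqcrc1, a core protein of the matrix side, was at 65.2 and 104.7 CPM against 60.7 and 62.6 CPM (-0.46, SE 0.24), and its value was -0.083 without that library. Its partner Uqcrc2 was at 29.1 and 30.8 CPM against 29.5 and 31.0 CPM, with all 4 libraries close together. It shares 19.8% of its exonic bases with Pdzd9. Uqcrfs1, the Rieske iron-sulfur protein, was at 28.8 and 32.8 CPM against 28.1 and 28.9 CPM. Uqcrq, a small subunit, had a wide gap between the controls, 27.3 and 64.9 CPM, with 34.5 and 37.9 CPM in the anti-CD93 libraries. Its log2 fold change was -0.34 with all libraries and 0.40 without control IgG replicate 2.

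Complex IV, cytochrome c oxidase, has nuclear subunits that surround a core encoded in mitochondrial DNA. Cox5b (chromosome 1, 36691449 to 36693681), a zinc-binding subunit of the matrix side, was at 71.9 and 122.0 CPM with control IgG and 69.8 and 60.4 CPM with anti-CD93 (a log2 fold change of -0.57, SE 0.26, edgeR adjusted p = 0.812). Without control IgG replicate 2 it was -0.14. Cox4i1, the common form of the regulatory subunit 4, was at 66.3 and 78.6 CPM against 69.3 and 65.5 CPM, and Cox5a at 14.4 and 13.7 CPM against 15.9 and 13.1 CPM. Both overlapped between groups. Cox8a was at 43.6 and 60.7 CPM against 39.9 and 38.9 CPM (-0.40, SE 0.22), and Cox7b at 47.3 and 62.3 CPM against 45.8 and 39.1 CPM (-0.37, SE 0.21). Each anti-CD93 library lay below each control for these genes, by less for the first control, and without control IgG replicate 2 the values were -0.15 for Cox8a and -0.16 for Cox7b. Cox7a2, the widespread form of subunit 7a, was at 17.3 and 14.5 CPM against 12.8 and 13.2 CPM (-0.29, SE 0.24). Its groups did not overlap and the first control was the highest library, so that the value was -0.41 without control IgG replicate 2. Cox7a2l was at 49.9 and 43.5 CPM against 53.4 and 53.7 CPM (0.20, SE 0.19, and 0.10 without that library). It was 1 of 2 tested members of the complex with a positive difference.

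Complex V, the ATP synthase, joins a catalytic head to a proton-driven rotor. The head subunits Atp5a1 (alpha) and Atp5b (beta) had the most reads of all members. Atp5a1 was at 275.4 and 310.8 CPM with control IgG and 258.2 and 257.4 CPM with anti-CD93 (a log2 fold change of -0.19, SE 0.17), and Atp5b at 275.7 and 311.2 CPM against 280.6 and 267.2 CPM (-0.099, SE 0.17). Atp5a1 libraries did not overlap between groups, and those of Atp5b did, and the values were -0.097 and -0.011 without control IgG replicate 2. The central stalk gave values on both sides of 0: Atp5c1 (gamma) was at 70.9 and 68.4 CPM against 81.0 and 76.7 CPM (0.18, SE 0.17). Atp5d (delta) was at 37.2 and 64.5 CPM against 40.3 and 39.5 CPM (-0.34, SE 0.27), and 0.10 without control IgG replicate 2. Atp5e (epsilon) was at 14.1 and 18.2 CPM against 14.7 and 15.98 CPM.

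Among the small membrane subunits, Atp5k (chromosome 5, 108433244 to 108434448), which takes part in pairing of the synthase into dimers, was at 34.0 and 60.2 CPM against 32.7 and 25.3 CPM. Its log2 fold change was -0.69 (SE 0.29, unadjusted p = 0.0463, edgeR adjusted p = 0.812), with -0.23 without control IgG replicate 2. Atp5mpl, another small associated subunit, was at 41.8 and 93.9 CPM against 41.9 and 44.2 CPM. All of its difference (-0.65, SE 0.34) lay in 1 control library, since without that library the value was 0.039. Atp5md, a small subunit of the same part, went the other way, at 10.7 and 13.6 CPM against 15.5 and 15.3 CPM (0.35, SE 0.25). Its value was 0.53 without control IgG replicate 2, and 0.063 with each library's trend with length and GC content removed.

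Within each complex, levels could be ordered only per length, here as CPM per kilobase of all annotated exons of a gene (mean ± SD over the 4 libraries, n = 4). Atp5a1 was the highest member of complex V, at 87.9 ± 7.97, and Atp5g1, 1 of 3 genes for the rotor ring subunit c, the lowest, at 1.51 ± 0.263. Cox8a (74.0 ± 16.4) and Cox7a1 (1.82 ± 0.402) were the ends of complex IV among tested members. Uqcrb (55.8 ± 6.86) and Uqcrc2 (11.8 ± 0.364) were those of complex III. Sdha (31.3 ± 1.73) and Sdhc (8.57 ± 1.19) were those of complex II. Ndufa8 (48.1 ± 19.0) and Ndufb2 (0.841 ± 0.113) were those of complex I. The order depended on the length taken, since many members have long minor transcripts. With the length of the transcript that has the longest coding sequence, a choice made after the data were seen, Cox6c went from 25.4 to 179.9, Atp5h from 56.5 to 170.4, Uqcrq from 22.5 to 101.6 and Ndufb2 from 0.841 to 10.4 CPM per kilobase. Sdha was the highest of its complex by either length.

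Several subunits have paralogous genes used in different tissues, and most of the muscle and testis forms had few or no reads in these libraries. The heart and skeletal muscle form Cox6a2 had 0 reads in all 4 libraries, which allows up to 0.169 to 0.321 CPM per library (3 reads, counting error only), while the widespread Cox6a1 was at 33.9 to 49.2 CPM. The muscle form Cox8b had 0, 0, 2 and 0 reads (control IgG replicates 1 and 2, then anti-CD93 replicates 1 and 2). The testis forms Cox6b2 (0, 2, 2 and 9 reads), Cox8c (0, 4, 0 and 0 reads) and Cox7b2 (0 reads in each) were likewise at or near 0. Cox7a1, another muscle form, took 7.68%, 13.6%, 10.4% and 11.2% of the length-scaled level of the pair with Cox7a2, from 10 to 15 reads per library. Scaled by the transcript with the longest coding sequence, it took 6.02% to 10.8%. The 7 skeletal muscle markers summed to 3.11 to 9.53 CPM, also highest in control IgG replicate 2. The part of muscle cells in the Cox7a1 value was not tested.

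Both subunit forms known to be raised by low oxygen, Cox4i2 and Ndufa4l2, were detected at a low level. Cox4i2 was at 1.96 and 5.25 CPM with control IgG and 2.94 and 0.872 CPM with anti-CD93, from 12 to 52 reads per library. Its share of the length-scaled pair with Cox4i1 was 5.49% and 11.6% against 7.70% and 2.55%. Scaled by the transcript with the longest coding sequence instead, that share was 2.9% and 6.4% against 4.2% and 1.3%. The groups overlapped, and the log2 fold change of -0.88 (SE 0.70) was -0.0059 without control IgG replicate 2, -1.42 without control IgG replicate 1, -2.01 without anti-CD93 replicate 1 and -0.28 without anti-CD93 replicate 2. Ndufa4l2 was at 2.61 and 7.28 CPM against 3.39 and 4.07 CPM, with 23.0% and 35.3% against 26.4% and 28.7% of the pair with Ndufa4. By the transcript with the longest coding sequence, the share was only 10.3% and 17.3% against 12.1% and 13.4%. The log2 fold change of Ndufa4l2 was -0.39 (SE 0.52) with all libraries and 0.51 without control IgG replicate 2. Both genes are also known from pericytes, whose 5 markers summed to 335.6 and 320.4 CPM with control IgG and 416.9 and 300.7 CPM with anti-CD93, and the part of such cells in these values was not tested. Of the ring subunit genes, Atp5g3 took 53.6% to 63.2% of the summed length-scaled level in the 4 libraries, Atp5g2 31.5% to 40.2% and Atp5g1 5.30% to 6.58%. By the transcript with the longest coding sequence, these were 44.54% to 54.15%, 33.0% to 41.5% and 12.1% to 14.9%. Of the 100-base stretches of Atp5g2, 34.7% also occur in transcripts of other genes (0% for Atp5g3 and 5.94% for Atp5g1), so its share is uncertain. The groups' shares overlapped for Atp5g2 and Atp5g3, and the share of Atp5g1 was lower in both anti-CD93 libraries than in both controls. The CPM of Atp5g1 itself overlapped, at 6.93 and 9.31 with control IgG and 7.06 and 6.39 with anti-CD93. Its log2 fold change was -0.27, and -0.042 without control IgG replicate 2. Ndufa4, counted here with complex I by its name, is placed in complex IV by structures.

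**Figure D4:**
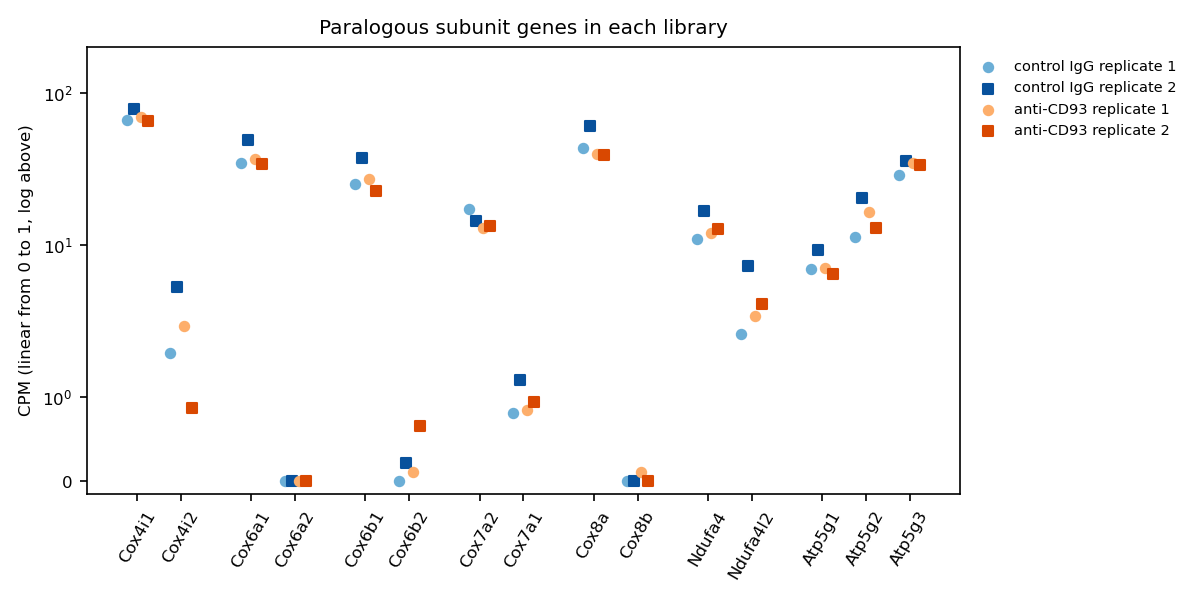
CPM of paralogous subunit genes in each library (vertical axis linear from 0 to 1 and log above). Cox6a2 is at 0 in all 4 libraries and Cox8b in 3, and Cox4i2 (0.872 to 5.25 CPM) and Ndufa4l2 (2.61 to 7.28 CPM) are highest in control IgG replicate 2.

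The excess of the members in control IgG replicate 2 tended to be larger at a higher GC content of their transcripts, and was also seen at a lower one. Across the 81 members, the log2 ratio of control IgG replicate 2 to replicate 1 had a Spearman correlation of 0.46 with the GC content of a gene's transcripts, and across 16789 tested genes it was 0.51. These points share their libraries and are not independent replicates. Members above the median GC of 51.4% had a median log2 ratio of 0.57 (40 genes), and those at or below it 0.22 (41 genes). Over all genes tested the median ratio was 0.013. The log2 fold change between the groups also went with GC, at -0.47 among members and -0.45 among all genes, and at -0.098 and -0.065 without control IgG replicate 2. Members were shorter than other genes, with a median exon length of 1569 against 3745 bases, and their GC was 51.4% against 49.5%. With each library's trend with length and GC removed, the members' median was -0.12, with 65 lower and 16 higher and 0 called. Over all 16789 genes in that fit the median was -0.023, with 8962 lower, 7827 higher and 0 called. By complex the median was -0.071 in complex I, -0.14 in complex II, -0.25 in complex III, -0.21 in complex IV and -0.091 in complex V.

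**Figure D5:**
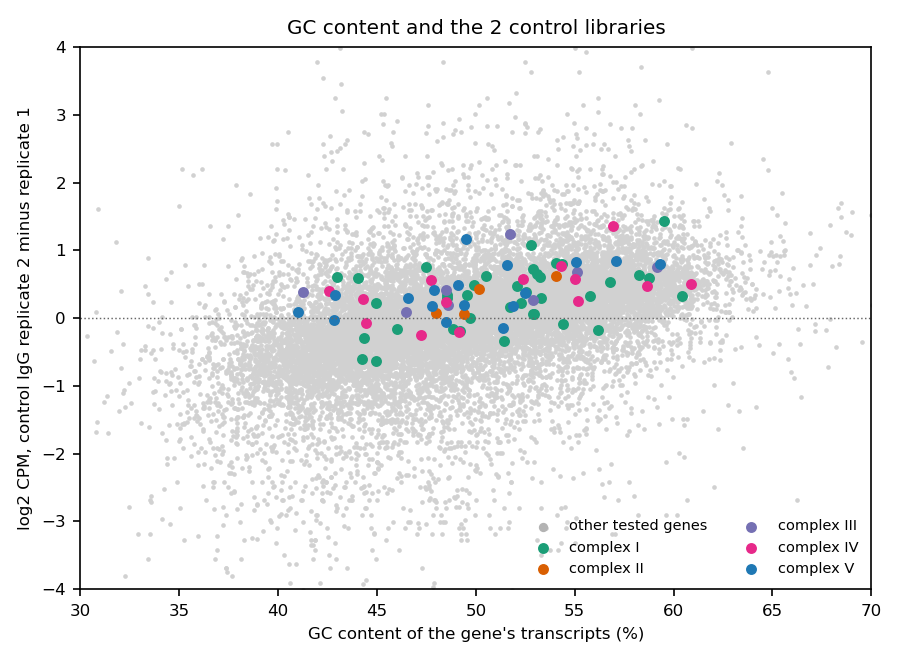
Log2 CPM of control IgG replicate 2 minus replicate 1 (vertical axis) against the GC content of a gene's transcripts (horizontal axis, %), for members coloured by complex and 16708 other tested genes in grey, of which 32 lie outside the plotted range. Both rise from left to right, and most members lie above 0, with a median of 0.34.

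The subunits encoded in mitochondrial DNA, partners of the nuclear ones in complexes I, III, IV and V, had differences of the opposite sign. Of 13, 0 passed the edgeR test (3 had an unadjusted p under 0.05, all higher, beside 1.99% of all genes), 11 were higher and 2 lower with anti-CD93, and the median log2 fold change was 0.41. Both anti-CD93 libraries lay above both controls in 10 of the 13, beside 20.1% of all genes. Among the 10, mt-Nd3 (0.964 to 3.05 CPM), mt-Nd4l (0.653 to 1.30 CPM) and mt-Atp8 (1.18 to 2.77 CPM) had a low level. The largest log2 fold changes of the list, 1.07 and 1.00, were those of mt-Nd3 and mt-Atp8. The complex I subunit mt-Nd5 was at 634.3 and 487.8 CPM with control IgG and 877.2 and 733.1 CPM with anti-CD93 (a log2 fold change of 0.52, SE 0.20). The cytochrome b gene mt-Cytb was at 1038 and 742.7 CPM against 1287 and 1083 CPM (0.41, SE 0.21), and the complex IV core subunit mt-Co1 at 2467 and 2292 CPM against 2747 and 2557 CPM (0.16, SE 0.17). Control IgG replicate 2 was the lowest library in each of these, and without it the values were 0.34, 0.19 and 0.10. The list's median was 0.31 without that library and -0.013 with the length and GC trends removed, these genes having a median GC of 37.1%. The 3 subunits or inhibitors outside the symbol pattern gave 0 calls: Ndufab1 was at 14.7 and 14.9 CPM against 17.3 and 15.6 CPM. Cyc1, cytochrome c1 of complex III, was at 30.5 and 36.2 CPM against 28.3 and 23.4 CPM, and Atpif1 at 22.7 and 37.5 CPM against 21.9 and 21.1 CPM.

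Genes that build or feed the chain had 0 calls by edgeR in every list looked at, and 0 members of these lists had an unadjusted p under 0.05. Complex IV assembly factors were lower in 14 of 19 (median log2 fold change -0.29, and -0.13 without control IgG replicate 2), with 7 whose anti-CD93 libraries both lay below both controls (beside 19.7% of all genes) and 3 whose libraries lay above both (beside 20.1%). Their median ratio between the controls was 0.011, near that of all genes, unlike the subunits of the complex they build (0.44). Complex I assembly factors were lower in 7 of 16 (median 0.041), those of complex II in 2 of 4 (0.13), of complex III in 3 of 5 (-0.069) and of complex V in 2 of 4 (-0.013). Genes of electron carriers and coenzyme Q synthesis were lower in 4 of 12 (0.018). TCA cycle enzymes, which supply NADH and succinate, were lower in 10 of 13 (-0.13, and -0.032 without control IgG replicate 2). For 7 of the 13 both anti-CD93 libraries lay below both controls (beside 19.7% of all genes), and for 1 above both (beside 20.1%). Regulators of mitochondrial biogenesis were lower in 5 of 11 (0.027). Without control IgG replicate 2 the medians were 0.11, -0.0062, -0.099 and 0.16 for the assembly factors of complexes I, II, III and V, -0.056 for electron carriers and coenzyme Q synthesis and 0.047 for the regulators. Among them Nrf1, the factor of the NRF1 motif, was at 47.4 and 49.2 CPM against 51.9 and 46.5 CPM. Gabpa was at 70.4 and 44.9 CPM against 77.2 and 81.6 CPM, higher with anti-CD93 in both libraries (0.46, SE 0.24), with 0.17 without control IgG replicate 2. It shares 397 exonic bases with the member Atp5j, so its value is uncertain. The groups overlapped for Nrf1 and did not for Gabpa.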

How the data were processed

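Per the labels' protocols, libraries were prepared from total RNA of the sorted cells by a stranded kit for small inputs, and read from both ends. Per the file headers, the authors deposited raw read counts made with featureCounts 2.0.1 on GENCODE vM25 (GRCm38), grouped by gene name, with neither a paired-end nor a strand option. The submitters' processing notes name STAR 2.7.5b and DESeq2 1.28.1. A second deposited table labelled as normalized held the same counts (0 of 221468 cells differed).

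All genes were fitted together with edgeR 4.0.16 in R 4.3.3: filterByExpr at a minimum count of 10, TMM, robust quasi-likelihood test, no covariates, Benjamini-Hochberg adjusted p under 0.05. The scripts were tested on simulated data. DESeq2 1.42.0, limma-voom (limma 3.58.1), other scalings and filters, a block for the replicate number, leaving out each library, halved counts and removal of each library's length and GC trend were alternatives. CPM uses TMM library sizes. GC, transcript lengths and gene types came from GENCODE vM21, promoters from RefSeq (GRCm38.p6); 20 members had no window. Coordinates of genes are those of the deposited table. Of the members, 30 share exonic bases and 31 share 100-base stretches with another gene, and for 49 neither was found. Those 49 include the 4 symbols typed as processed pseudogenes, whose own stretches were not examined. Stretches of Ndufb4 and Cox6c do occur in 2 of these symbols, Ndufb4c and Cox6c2.

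The members and lists were chosen with earlier results of these data known. Named members were the catalytic core, the paralogs, and per complex the smallest p in each direction, the highest and lowest level per length, and the 5 largest differences in each direction among members whose groups did not overlap; members outside this rule (such as Atp5mpl, Uqcrq and Cox7b) were chosen after their values were seen, and 1 further member under this rule is left out of the text and of the count of named members. Between 9364294 and 17813993 reads per library and 2 libraries per group limit the precision.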

Additional observations from a re-analysis of the deposited data

How the results depend on the processing

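With 2 libraries per group and counts in which each mate may stand alone, small differences could not be tested with precision. The members' median stayed negative, from -0.22 to -0.11, under every alternative run that kept all 4 libraries, and 0 members were called there. Alternatives chosen after the data were seen are included. Without members typed as processed pseudogenes the median was -0.16. Over the tested ones among the 49 members for which no sharing was found, it was -0.22. In the DESeq2 fit, over all genes with a read, the median of all genes was -0.13, beside -0.14 for the members. With no count filter in edgeR, the median of all genes was -0.094, beside -0.11 for the members. The background of these 2 runs was 33419 genes with a read, against 16945 in the main fit, so their medians of all genes are not comparable. With DESeq2 size factors in edgeR, over the 16945 genes, the median of all genes was -0.0089, beside -0.16 for the members. In the DESeq2 fit 63 of 86 members were lower. Calls among all genes numbered 48 with no count filter (0 of them members) and 5 by DESeq2. With the replicate number as a block there were 14 calls among all genes, 0 of them members. The numbers pair no libraries by the labels, and deviations of same-numbered libraries correlated at -0.016. With a library left out, calls among all genes ran from 0 to 4549, calls among members from 0 to 27, the members' median from -0.28 to 0.039 and that of complex I from -0.27 to 0.075. Both upper counts came without control IgG replicate 1, and both positive medians without control IgG replicate 2.

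Of 642 pairs of a named member and an alternative, 601 kept direction and side of the threshold, 16 passed it only without control IgG replicate 1, and 25 turned direction, 13 of them without control IgG replicate 2. With a library left out, log2 fold changes ran from -0.69 to 0.10 for Atp5d, -0.25 to 0.12 for Atp5e, -0.47 to 0.38 for Atp5g2, -0.059 to 0.24 for Atp5g3, -0.22 to 0.023 for Cox4i1, -0.099 to 0.18 for Cox5a, -0.48 to 0.026 for Cox6a1, -0.57 to 0.0035 for Cox6b1 and -0.52 to 0.13 for Cox7a1. They ran from -0.45 to 0.16 for Ndufa4, -0.97 to 0.51 for Ndufa4l2, -0.53 to 0.0068 for Ndufs8, -0.0015 to 0.61 for Ndufv2, -0.34 to 0.097 for Sdhc, -0.13 to 0.036 for Sdhd, -0.26 to 0.12 for Uqcrb and -0.030 to 0.054 for Uqcrc2. With length and GC trends removed, Atp5g2 was 0.12, Atp5g3 -0.055, Cox4i1 0.034, Cox5a -0.18 and Uqcrc2 -0.11, and with no count filter Sdhd was 0.0036. The cause was not tested.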

Other observations

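The ribosomal protein families, measured with the same fit, had a like pattern across libraries. Of 86 tested cytosolic ribosomal protein genes, which encode the ribosome of the cytoplasm, 62 were lower and 24 higher with anti-CD93, beside 50.9% of all genes lower. Their median log2 fold change was -0.097. By edgeR 0 were called and 1, lower, had an unadjusted p under 0.05, beside 2.5% of all genes on that side. Their median was 0.070 without control IgG replicate 2, which was the highest library in 62 of the 86, beside 38.7% of all genes. The mitochondrial ribosomal protein genes encode the ribosome that makes the subunits encoded in mitochondrial DNA. Of 77 tested, 61 were lower and 16 higher (median -0.18), beside 50.9% of all genes lower. By edgeR 0 were called and 5, all lower, had an unadjusted p under 0.05, beside 2.5% of all genes on that side. Their median was 0.0020 without control IgG replicate 2, the highest library in 48 of the 77, beside 38.7% of all genes. As for the respiratory subunits, the median log2 ratio of control IgG replicate 2 to replicate 1 was above that of all genes, at 0.30 and 0.27.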
